A study of Arabidopsis thaliana with 6 samples.

Results

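The mitochondria-encoded genes of Arabidopsis thaliana were examined in 10-day-old plants grown with and without cesium. They were taken as every row of the deposited count files whose ID starts with ATMG, the locus prefix of the mitochondrial genome, which gave 152 of 33977 IDs. Whole Col-0 plants, with no mutation or transgene named in the labels, were raised for 10 days at 22 °C in a cycle of 16 h light and 8 h dark. The 3 controls, given as Mock in the labels, were on half-strength MS medium, a mineral plant medium. The 3 treated samples were on that medium with 1.5 mM cesium chloride (CsCl) added. Seeds were sown directly on these media, so treatment covered the whole growth period, and no label says whether replicates came from different plates or sowings.

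Plant mitochondria carry a small genome that encodes some of the subunits of the respiratory chain complexes, the ATP synthase, the proteins that attach heme to cytochromes, and the organelle's own ribosome. All other subunits of these complexes are encoded in the nucleus and imported. Transcripts of the organelle are processed from long precursors, and in plant mitochondria a poly(A) tail marks RNA for degradation. Libraries were made with a stranded kit that selects polyadenylated RNA, so the counts describe the mitochondrial RNA that this selection retained.

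The libraries held 32075069 to 44108369 counts. Of the 152 IDs, 8 were at 0 in all 6 libraries, 38 had a summed count of 1 to 10, and 36 had more but did not pass the filter on low counts. The remaining 70 were tested, and 48 of these had a mean of at least 1 CPM, the count relative to the TMM-scaled library size. A total of 81 IDs were counted in every library. The filter does not use the direction of change, and the untested IDs have no result in either direction.

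Names were available for part of the set. The TAIR10.1 annotation of chromosome 2, which carries a large insertion of mitochondrial DNA, describes its loci by the ATMG protein they match. Through these notes 45 of the 152 IDs had a description: 18 fell into 6 role groups, 6 had another name, and 21 were unknown proteins. The other 107 IDs had no name there and are given by ID alone, so each role group holds only the members that these notes name.

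These copies also bear on every named gene. All 46 chromosome 2 loci described in this way matched the TAIR10.1 mitochondrial genome at 99.72% identity or more, 43 of them over their whole length and 22 without a mismatch in the best match. In the counts, rps12 (ATMG00980), which encodes a protein of the small ribosomal subunit, summed to 5082 over the 6 libraries and its chromosome 2 copy AT2G07675 to 5100. For atp8 (ATMG00480), a subunit of the membrane part of the ATP synthase, the sums were 917 and 883. Such closeness was rare: of 26 pairs with a summed mitochondrial count of at least 100, only 3 were within 10%, these included. Reads from the organelle gene and from its copy could not be told apart in these files, and the values below are given as deposited. The IDs without a name were not searched for copies. Of these, 8 are cited in the annotation as the parent of a pseudogene, so reads may be shared there too.

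A pair of genes shows how close the copies are. The gene nad3 (ATMG00990), a membrane subunit of complex I, lies directly before rps12 in the mitochondrial genome, and the pair is known to be transcribed together in plants. The stretch from the end of nad3 to the start of rps12 is shown from both places because the counts of these genes moved as a pair in every library. It is given 5′ to 3′ on the plus strand of TAIR10.1, with the 45 bases between the reading frames in capitals and 60 bases of each gene in lower case.
chr2:3270305-3270469: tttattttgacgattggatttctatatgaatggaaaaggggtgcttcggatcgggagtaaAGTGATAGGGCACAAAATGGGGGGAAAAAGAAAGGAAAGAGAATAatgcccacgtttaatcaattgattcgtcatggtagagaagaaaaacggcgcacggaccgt
chrMT:288341-288505: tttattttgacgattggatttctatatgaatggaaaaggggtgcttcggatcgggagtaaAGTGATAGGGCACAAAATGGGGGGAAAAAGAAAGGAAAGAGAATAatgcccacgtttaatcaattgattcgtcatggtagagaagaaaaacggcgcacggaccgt
The 2 stretches of 165 bases differed at 0 positions. The files use TAIR10, and whether its mitochondrial sequence is the same as that of TAIR10.1 is not given in the sources used here.

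The first comparison asked how much of each library came from the mitochondrial genome. For such sums, CPM were taken relative to total counts with no scaling factor (unscaled CPM). Mitochondrial IDs took 704, 611 and 700 unscaled CPM in control replicates 1 to 3 and 708, 984 and 891 in CsCl replicates 1 to 3. In unscaled CPM, CsCl replicate 1 lay just above the highest control, and replicates 2 and 3 were above all controls. The place of replicate 1 depended on the scaling, with TMM factors of 0.961 in control replicate 3 and 1.01 in CsCl replicate 1. In TMM-scaled CPM, the 107 unnamed IDs took 596, 508 and 620 in the controls and 603, 847 and 770 with CsCl. On that scale CsCl replicate 1 was inside the control range. For all 152 IDs the group means were 671 ± 52.6 and 861 ± 140.2 unscaled CPM (SD, n = 3), a difference of 189.7. No p is given for this sum, because the set was chosen with results of these data known. In whole plants, more mitochondria per cell, more cells rich in them and more RNA per mitochondrion cannot be told apart. Nor can they be told apart from a difference in how much organelle RNA the poly(A) selection retained.

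Most of that difference lay in a pair of unnamed IDs. ATMG00020 and ATMG01390 together held 64.1% to 73.3% of the mitochondrial counts. They took 481, 391 and 476 unscaled CPM in the controls and 487, 683 and 653 with CsCl. They were planned to be set aside together with ATMG01380, which had 16 to 31 counts per library, on the assumption that these 3 IDs are ribosomal RNA genes. No file or reference used here names them, so whether most mitochondrial counts came from ribosomal RNA is not known from these sources. Without the 3 IDs the difference between group means was 31.8 unscaled CPM, against 189.7 for all 152 IDs. The other 149 IDs took 222, 219 and 222 unscaled CPM in the controls and 221, 300.4 and 238 with CsCl. CsCl replicate 1 lay inside the control range and replicates 2 and 3 were above it. A further split was made after the values were seen: the 148 IDs other than ATMG00020, ATMG01390, nad3 and rps12 took 178, 176 and 179 unscaled CPM in the controls and 189, 248 and 207 with CsCl. Every CsCl library was then above every control in unscaled CPM. This rests on leaving out nad3 and rps12, which were low in CsCl replicates 1 and 3. The margin of CsCl replicate 1 over control replicate 3 also depends on the scaling, as their TMM factors were 1.01 and 0.961.

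**Figure D1:**
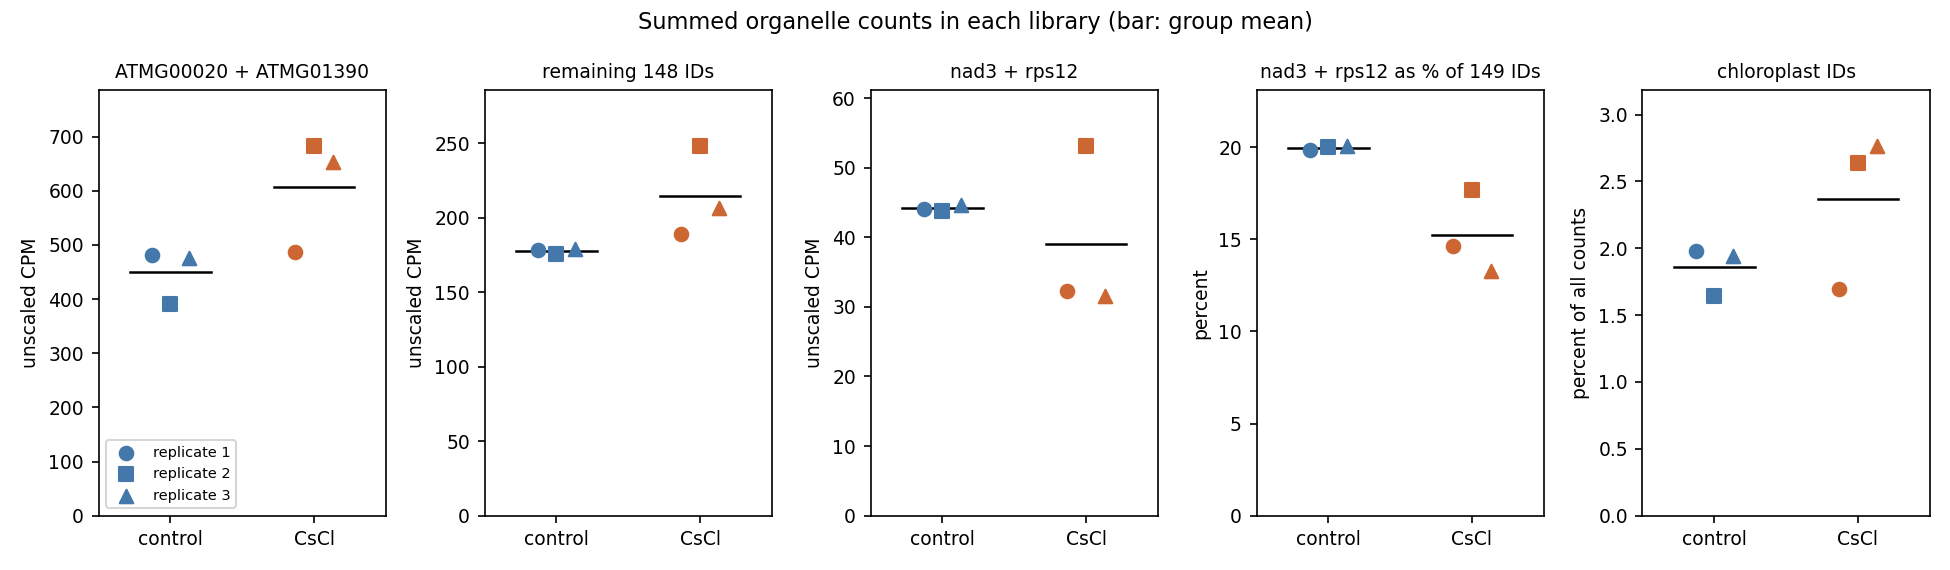
Each point is 1 library (control in blue, CsCl in orange; circle, square and triangle for replicates 1, 2 and 3) and each bar a group mean, in unscaled CPM for the first 3 panels and in percent for the last 2. The remaining 148 IDs are those other than ATMG00020, ATMG01390, nad3 and rps12. The sum of nad3 and rps12 was 43.8 to 44.6 unscaled CPM in the controls and 31.6 to 53.1 with CsCl, while CsCl replicates 2 and 3 stood above the controls for ATMG00020 with ATMG01390 and for the chloroplast. CsCl replicate 1 was just above the highest control for ATMG00020 with ATMG01390 (487 against 481 unscaled CPM) and inside the control range for the chloroplast.

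The chloroplast moved in the same libraries. Its 133 IDs took 1.98%, 1.64% and 1.95% of counts in the controls and 1.70%, 2.64% and 2.77% with CsCl. CsCl replicate 1 was inside the control range and replicates 2 and 3 were above it. Of 116 chloroplast IDs tested, 12 were higher and 0 lower with CsCl, against 0.843% and 1.32% of all genes. Of 9 root marker genes 6 fell, against 1.32% of all genes. The summed level of the 9 was 5925 to 6262 CPM in the controls and 4523 to 5092 CPM with CsCl, most of it from PYK10 (5819 CPM in control replicate 1), and none of the 9 was at 0 in any library. Of 6 green shoot markers, 0 passed edgeR's test and 2 had an unadjusted p under 0.05, both lower, against 7.75% of all genes, and none was at 0. The part of these values in the mitochondrial result was not tested.

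Gene by gene, 0 of the 70 tested mitochondrial IDs were higher and 0 lower with CsCl at an adjusted p under 0.05 (edgeR's quasi-likelihood test, Benjamini-Hochberg adjustment over 21005 genes). Over all genes 2.16% were called, 0.843% higher and 1.32% lower, so a count of 0 in 70 IDs is near that background. At an unadjusted p under 0.05 edgeR gave 10 IDs with higher values and 2 with lower values, in all 17.1% of the 70 against 14.4% of all genes (6.67% higher and 7.75% lower). DESeq2 called 1 ID higher, against 1.12% of all genes, and 0 lower, and limma-voom called 0 in each direction.

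The fitted changes leaned upwards. A total of 50 IDs had a log2 fold change above 0 and 20 below, 71.4% against 51.4% of all genes, and the median was 0.13 against 0.0052. The range ran from -0.62 to 0.80. Groups did not overlap for 6 IDs higher with CsCl and 4 lower, which is 8.57% and 5.71% of the 70 against a background of 10.0% and 9.75%. The 4 lower include ATMG09450 and ATMG09730, whose counts are nearly identical. They also include ATMG00780 and ATMG01020, both under 1 CPM, whose counts followed each other closely (6 to 19 and 9 to 22 per library). Among the 70, ATMG00170 and ATMG00620 had identical counts in all 6 libraries, so these numbers of IDs hold repeats. Beside the control range, CsCl replicate 1 had 13 IDs above all controls and 14 below, replicate 2 had 37 above and 9 below, and replicate 3 had 28 above and 13 below. The matching shares over all genes were not computed, so no conclusion about the mitochondrial IDs is drawn from these counts.

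**Figure D2:**
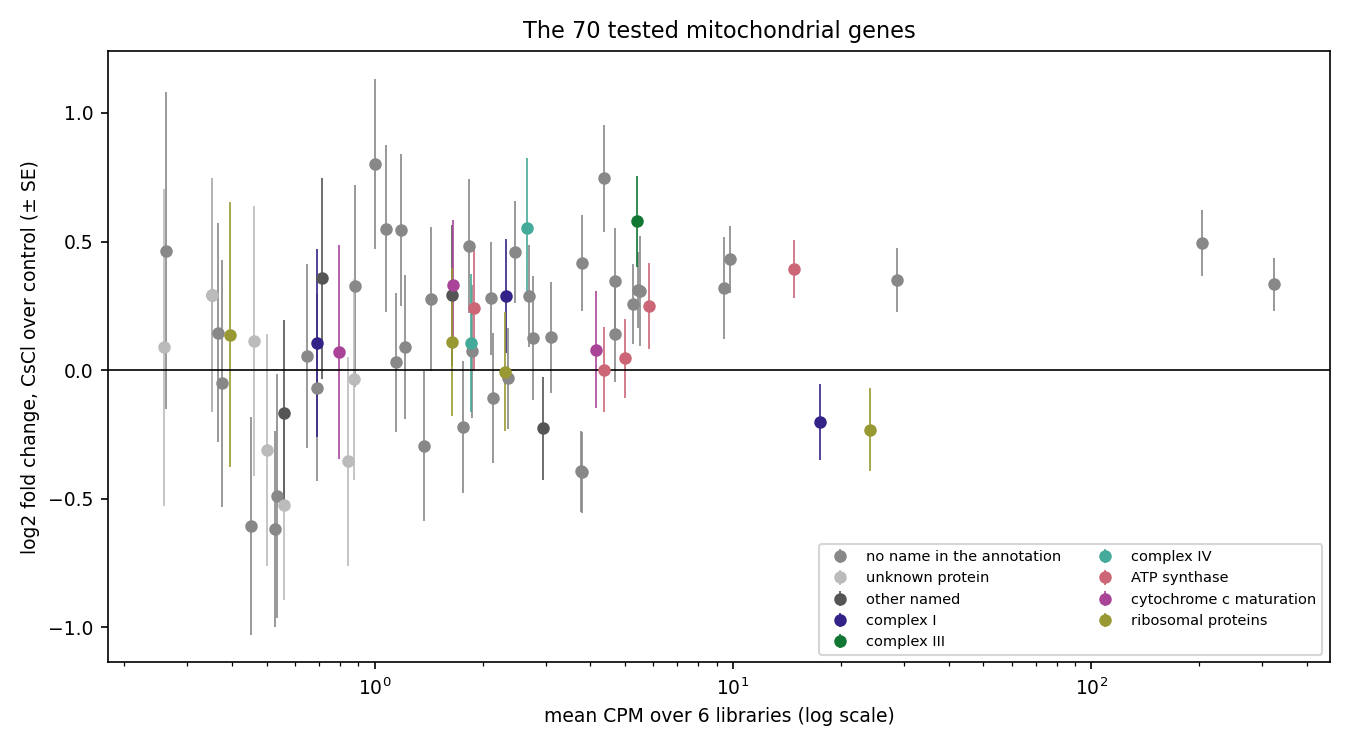
Each point is 1 of the 70 tested mitochondrial IDs, with its mean CPM over 6 libraries on a log axis and its log2 fold change (CsCl over control, edgeR) with SE on the other, coloured by role group. The most abundant IDs without a name lie above 0, nad3 and rps12 lie at -0.20 and -0.23, and the scatter and the SEs widen below 1 CPM.

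The most abundant IDs carried no name. ATMG00020 had 9691, 8430 and 10607 counts in the controls and 9664, 14630 and 16584 with CsCl, or 287 ± 29.8 and 361 ± 60.5 CPM (SD, n = 3). CsCl replicate 1 lay between the controls, and the log2 fold change of 0.33 ± 0.10 (SE) did not pass the test (edgeR adjusted p = 0.138). ATMG01390 had 6046, 4644 and 6270 counts in the controls and 5966, 9126 and 12209 with CsCl. After scaling, its CsCl libraries were all above the controls, replicate 1 by a margin that rounds away (184 CPM, as in control replicates 1 and 3), and its log2 fold change of 0.49 ± 0.13 had the smallest adjusted p of the set (edgeR, 0.0641). ATMG00030 rested on 749 to 1013 counts in the controls and 839 to 1469 with CsCl, with a log2 fold change of 0.35 ± 0.13 and overlapping groups (edgeR adjusted p = 0.209).

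Which library was left out decided these calls. Without CsCl replicate 1, edgeR called ATMG00020 (log2 fold change 0.45, adjusted p = 0.0275), ATMG01390 (0.65, 0.0080) and ATMG01360 (0.93, 0.0272) higher, 3 IDs, while 0.707% of all genes were called higher. Without control replicate 1 it called 4 IDs higher, ATMG00220, ATMG01190, ATMG01360 and ATMG01390, against 1.09% of all genes. Leaving out control replicate 2 or 3 or CsCl replicate 3 gave 0 calls, with 9 to 12 IDs at an unadjusted p under 0.05 in edgeR.

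Complex I, which passes electrons from NADH into the respiratory chain, was represented by 3 named IDs, and none passed the test. The main one, nad3, had 605, 618 and 651 counts in the controls and 447, 764 and 598 with CsCl. In CPM these were 18.4, 18.6 and 19.1 against 13.8, 21.9 and 13.2. The controls lay close together, CsCl replicates 1 and 3 were below all of them and CsCl replicate 2 was above. The log2 fold change was -0.20 ± 0.15 (edgeR adjusted p = 0.585). ATMG01320, an exon region of the split gene nad2, gave 0.29 ± 0.22, and ATMG01275, of the split gene nad1, gave 0.11 ± 0.36 on 17 to 32 counts per library.

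The 4 named ribosomal protein genes included the partner of nad3. For rps12 the counts were 836, 846 and 931 in the controls and 590, 1085 and 794 with CsCl, or 25.5, 25.5 and 27.3 CPM against 18.2, 31.1 and 17.5 CPM. As for nad3, CsCl replicates 1 and 3 were below all controls and replicate 2 above all of them, and the log2 fold change of -0.23 ± 0.16 did not pass the test (edgeR adjusted p = 0.566). The other 3 were ATMG00210 (rpl5, a protein of the large subunit, -0.0064 ± 0.23), ATMG00290 (rps4, 0.11 ± 0.29) and ATMG01270 (rps7, 0.14 ± 0.51), both of the small subunit. The groups overlapped for all 4, and rps7 had only 7 to 23 counts per library.

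Together, nad3 and rps12 took 44.1, 43.8 and 44.6 unscaled CPM in the controls and 32.3, 53.1 and 31.6 with CsCl. Their ratio overlapped between the groups: rps12 over nad3 was 1.38, 1.37 and 1.43 in the controls and 1.32, 1.42 and 1.33 with CsCl. As a share of the 149 IDs other than ATMG00020, ATMG01380 and ATMG01390, the pair held 19.9% to 20.1% in the controls and 14.7%, 17.7% and 13.3% with CsCl. On that scale all 3 CsCl libraries were below all controls, replicate 2 included. This share was chosen after its values were seen, and is a description with no test.

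The per-gene result for this pair depended on 1 library. Without CsCl replicate 2, edgeR called rps12 (log2 fold change -0.55, adjusted p = 0.0103) and nad3 (-0.47, 0.0348) lower, 2 IDs, while 0.425% of all genes were called lower. With library size set to the counts of those 149 mitochondrial IDs, their log2 fold changes were -0.41 ± 0.18 and -0.37 ± 0.18, with unadjusted p of 0.0233 and 0.0418 and adjusted p of 0.536 and 0.675 (edgeR). Under that scaling 0 of the 70 IDs passed the test and the smallest adjusted p was 0.422. It moved the median of all genes to -0.13 and that of the mitochondrial IDs to -0.0051.

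Complex III had 1 named ID, ATMG00220, which encodes apocytochrome b (cob), the core heme-carrying subunit. It had 182, 113 and 139 counts in the controls and 180, 259 and 292 with CsCl. These were 5.54, 3.40 and 4.08 CPM against 5.56, 7.42 and 6.45 CPM, so the groups did not overlap, but CsCl replicate 1 and control replicate 1 were nearly equal. The log2 fold change was 0.58 ± 0.18 (edgeR adjusted p = 0.130). Its chromosome 2 copy AT2G07727 had a fitted value of 0.54 ± 0.14 (edgeR adjusted p = 0.0746), from reads that may be shared. A further ID, ATMG00590, is described as a cytochrome b/b6 protein and was kept outside the role groups. ATMG00590 had 82, 108 and 131 counts in the controls and 77, 94 and 140 with CsCl. The groups overlapped, and its log2 fold change was below 0 (-0.23 ± 0.20, edgeR adjusted p = 0.661).

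Complex IV, the oxidase that reduces oxygen, had 2 named IDs. ATMG00730 (cox3) had 53, 79 and 85 counts in the controls and 63, 156 and 140 with CsCl, with CsCl replicate 1 inside the control range. Its log2 fold change was 0.55 ± 0.27 (edgeR adjusted p = 0.380). ATMG01280, described as like subunit II, had 39 to 71 counts in the controls and 65 to 80 with CsCl and a log2 fold change of 0.11 ± 0.27.

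The ATP synthase had 5 named IDs, all with a fitted log2 fold change above 0 and none past the test. ATMG01190 (atp1, the catalytic core's alpha subunit) had 495, 380 and 404 counts in the controls and 541, 649 and 687 with CsCl. These were 15.1, 11.4 and 11.9 CPM against 16.7, 18.6 and 15.2 CPM, without overlap, though control replicate 1 and CsCl replicate 3 were close. The log2 fold change was 0.39 ± 0.11 (edgeR adjusted p = 0.104). Values for the membrane part were 0.25 ± 0.17 for ATMG00410 (atp6-1), 0.24 ± 0.25 for ATMG01090 (named as subunit 9), 0.046 ± 0.15 for ATMG01080 (atp9) and 0.00092 ± 0.17 for atp8, with overlapping groups in each. The sign for atp8 turned under other settings.

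**Figure D3:**
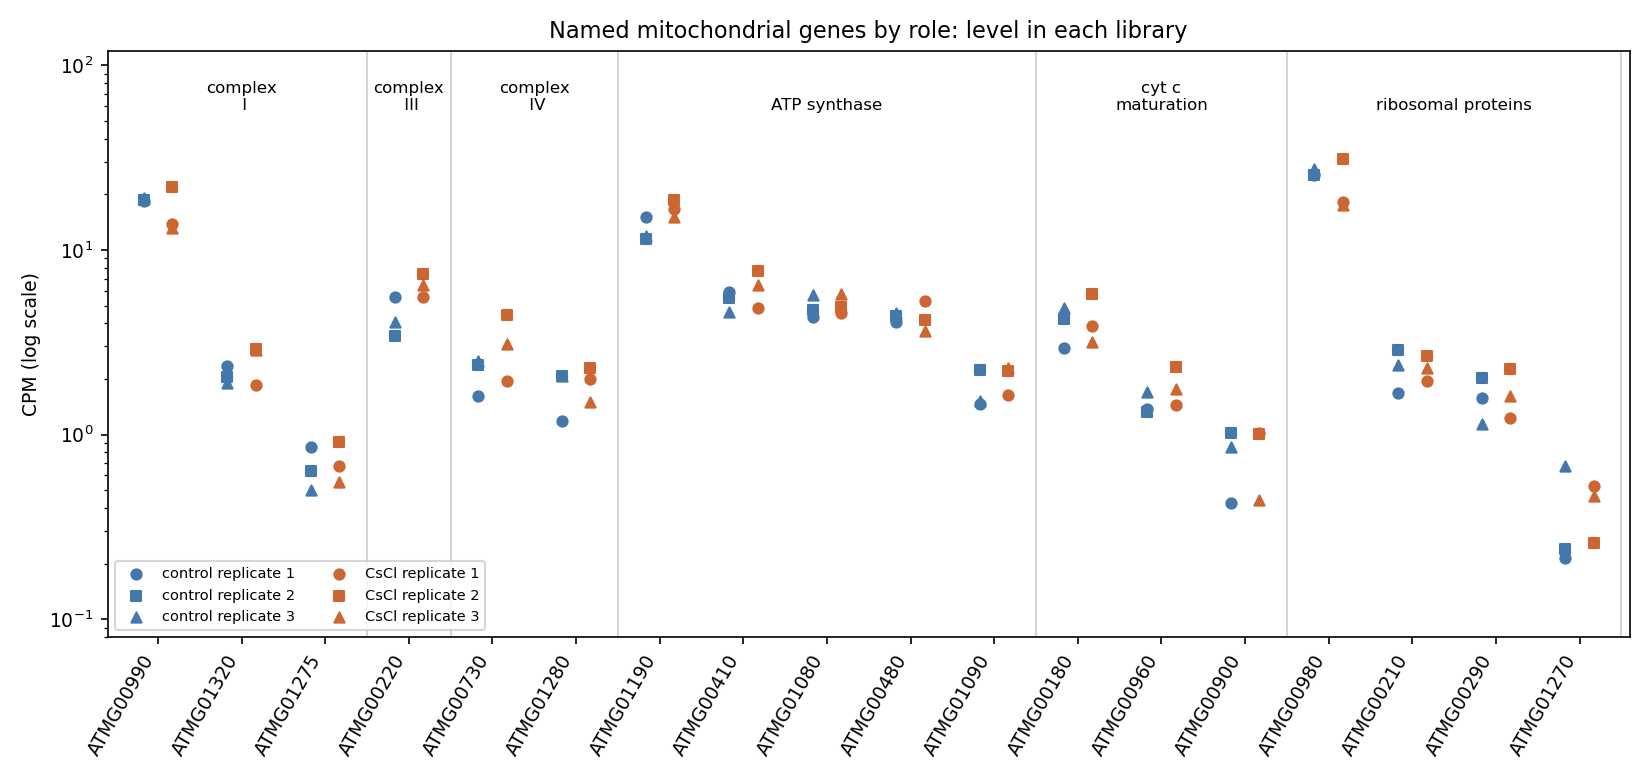
Each point is the CPM (log axis) of 1 library for the 18 IDs of the 6 role groups, with controls in blue at the left of each pair and CsCl in orange at the right, and the symbol giving the replicate. CsCl replicate 2 (square) is the highest point for most of the 18 IDs, ATMG00990, ATMG00980 and ATMG00220 among them. The groups do not overlap for ATMG00220 and ATMG01190.

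The 3 IDs of cytochrome c maturation, the pathway that attaches heme to c-type cytochromes, did not pass the test. Log2 fold changes were 0.079 ± 0.23 for ATMG00180, 0.33 ± 0.25 for ATMG00960 and 0.069 ± 0.41 for ATMG00900. The groups overlapped in each case. ATMG00180 had 97 to 165 counts in the controls and 125 to 201 with CsCl, and ATMG00900 only 14 to 35 counts in any library.

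Reading frames of unknown function were mostly too low to test. Of 21 unknown proteins, 14 were not tested and 1 of these was at 0 throughout. The 7 tested had log2 fold changes from -0.52 to 0.29 with a median of -0.036, 3 above 0 and 4 below, and the smallest adjusted p was 0.569 (edgeR). The 6 role groups had 15 of 18 values above 0, while 51.4% of all genes were above 0. Signs depended on the scaling: with the mitochondrial library size, 34 of the 70 tested IDs were above 0 and 36 below. The difference between named and unknown frames was not tested.

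Among the 107 unnamed IDs 41 were tested, and their median log2 fold change was 0.28. They held 8 of the 10 IDs with higher values at an unadjusted p under 0.05 and both with lower values, in all 24.4% of the 41 against 14.4% of all genes. Those with lower values are ATMG09450 and ATMG09730, whose counts are nearly identical. Among IDs with a mean of at least 1 CPM, the highest fitted changes belonged to ATMG00570, ATMG01360 and cob. ATMG01360 had 132, 103 and 91 counts in the controls and 125, 233 and 264 with CsCl, a log2 fold change of 0.75 ± 0.21 with CsCl replicate 1 inside the control range. It did not pass edgeR's test (adjusted p = 0.0916) and was the ID that DESeq2 called (adjusted p = 0.0276). ATMG00570 had 18, 26 and 29 counts against 38, 60 and 43, without overlap. Its log2 fold change of 0.80 ± 0.33 did not pass the test (edgeR adjusted p = 0.279).

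The lowest changes at that level were those of ATMG09450, ATMG09730 and ATMG00110. ATMG09450 had 129, 136 and 166 counts in the controls and 108, 113 and 146 with CsCl, or 3.93, 4.09 and 4.87 CPM against 3.33, 3.24 and 3.23 CPM. Its groups did not overlap in CPM, and its log2 fold change was -0.40 ± 0.16 (edgeR adjusted p = 0.258). ATMG09730 differed from it by 1 count in 1 library, so the pair cannot be counted as separate results. ATMG00110 gave -0.30 ± 0.29 with overlapping groups.

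**Figure D4:**
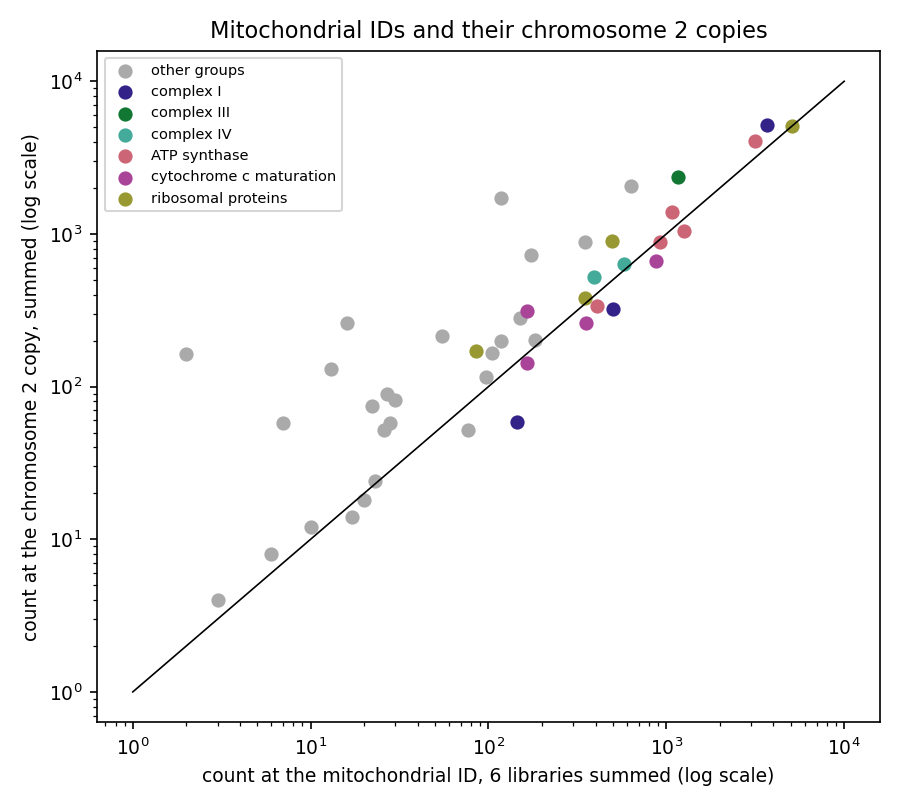
Each point is 1 of the 46 pairs of a mitochondrial ID and its chromosome 2 copy, with the count summed over 6 libraries at the mitochondrial ID and at the copy on log axes, and the line marks equal counts. Of the 26 pairs with at least 100 counts at the mitochondrial ID, 9 had copies within 25% of it, 14 had higher and 3 lower copies.

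The chromosome 2 copies were compared as a check on the named genes. Of 26 pairs with a summed mitochondrial count of at least 100, the copy was within 25% in 9, higher in 14 and lower in 3. Counts were not corrected for the length of either locus. The copy of nad3, AT2G07751, had 831, 877 and 907 counts in the controls and 642, 1067 and 881 with CsCl, and a log2 fold change of -0.17 ± 0.13. Like nad3, it had its highest count in CsCl replicate 2. The largest mismatch among well-counted pairs was at ATMG01010, an unknown conserved protein, with 117 counts in all against 1714 at its copy AT2G07674. That copy had 305, 337 and 283 counts in the controls and 191, 335 and 263 with CsCl. Its fitted log2 value was -0.38 ± 0.17 (edgeR adjusted p = 0.321), and the groups overlapped.

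Another copy, AT2G07678, matched to the unknown protein ATMG00920, had 2, 10 and 2 counts in the controls and 24, 25 and 26 with CsCl. All 3 CsCl libraries were above all controls, and the log2 fold change was 2.24 ± 0.56 (edgeR adjusted p = 0.0511), which is not past the threshold of 0.05. This locus passed the filter on low counts through its CsCl libraries, where it is high, so no conclusion is drawn from that p. ATMG00920 itself had 0, 6 and 0 against 6, 7 and 8 counts and was not tested. Both were named after their values were seen.

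The nuclear partners of these complexes were compared in the same fit. Of 58 nuclear genes of the respiratory chain and ATP synthase, 1 was higher and 0 lower, near the background of 0.843% and 1.32%, and the median log2 fold change was -0.0083 against 0.13 for the mitochondrial IDs. The gene that rose was AT3G15640, a nuclear-encoded complex IV subunit. It had 38.8, 37.7 and 34.9 CPM in the controls and 49.7, 47.7 and 47.3 CPM with CsCl, with no overlap, a 1.30-fold difference (log2 fold change 0.38 ± 0.064, edgeR adjusted p = 0.00614). Of 17 nuclear genes for mitochondrial RNA synthesis, splicing and turnover, 0 passed edgeR's test and 4 had an unadjusted p under 0.05, 3 of them with higher values, or 23.5% against 14.4% of all genes.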

How the data were processed

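RNA from whole plants was column-purified, treated with DNase and made into stranded mRNA libraries, per the labels' protocols. The deposited files hold raw counts per gene, 1 file per sample. FastQC, STAR, featureCounts, edgeR and TAIR10 appear without versions in the submitters' processing notes. How reads were counted by strand, and at several positions, is not given in the sources used here, and neither is the annotation release. Of values from 1 to 50, 65.5% to 73.4% were even over all genes and 48.7% to 59.5% among mitochondrial IDs, so halved counts were tried for mates counted separately.

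edgeR 4.0.16 (R 4.3.3) was run with filterByExpr, TMM factors (0.961 to 1.03), the quasi-likelihood test and Benjamini-Hochberg adjustment over all 21005 genes at 0.05. CPM are relative to TMM-scaled libraries unless called unscaled. An SE is the unshrunk log2 coefficient over the square root of F. Alternatives used limma 3.58.1, DESeq2 1.42.0, other scalings and filters, and single libraries left out. Copies were aligned with BLAST 2.17.0. No libraries were copies of each other (chi-square per gene 6.39 to 13.1 within groups). Nothing says that replicates are separate cultures, so p-values may reflect technical spread only.

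Single values are given for the 5 most abundant IDs, the 3 highest and 3 lowest log2 fold changes at a mean of at least 1 CPM, and, in each role group, the 2 most abundant, the highest and the lowest IDs. Others named are members of small role groups or were chosen after their values were seen. The members and lists were chosen with earlier results of these data known.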

Additional observations from a re-analysis of the deposited data

How the results depend on the processing

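Over 16 alternatives, 303 of 349 log2 fold changes of the 22 named IDs kept their sign and their side of the threshold, 16 passed the test only under the alternative and 30 changed sign. The count of higher mitochondrial IDs was 0 with RLE or chromosome-gene factors, the mitochondrial library size, a filter of 1 CPM in 3 libraries, limma-voom, halved counts and the replicate block, 1 with total counts only (ATMG01390) or with DESeq2, and 6 of 144 with no filter (ATMG00020, ATMG00220, ATMG00580, ATMG01190, ATMG01360 and ATMG01390); the cause was not tested. Leaving out 1 library gave 0 to 4 higher and 0 to 2 lower. Over all genes, 177 higher and 277 lower became 91 and 102 with the mitochondrial library size, 301 and 518 with no filter, 198 and 180 with total counts, 235 and 425 with DESeq2, and 89 to 231 and 90 to 330 with 1 library left out. The replicate numbers did not pair the samples (correlations of -0.077, 0.039 and -0.0096), and the replicate block gave 0 higher and 0 lower mitochondrial IDs and 146 and 210 over all genes. The difference in mitochondrial unscaled CPM, 189.7 in all libraries, was 31.8 without ATMG00020, ATMG01380 and ATMG01390 and 128 (without CsCl replicate 2) to 266 (without CsCl replicate 1) with 1 library left out. All sign changes were in 6 IDs with log2 fold changes between -0.0064 and 0.14 in the full fit. ATMG00480 had -0.0020 (RLE), -0.0011 (chromosome-gene factors), -0.12 (mitochondrial library size), -0.0043 (no filter), -0.00097 (DESeq2), -0.036 (limma-voom), -0.012 (halved counts) and -0.0085 (replicate block). ATMG00210 had 0.033 (total counts), 0.018 (limma-voom) and 0.0060 (replicate block). With the mitochondrial library size ATMG01280 had -0.040, ATMG00180 -0.084 and ATMG00900 -0.076. With 1 library left out the ranges were -0.16 to 0.12 for ATMG00480, -0.19 to 0.18 for ATMG00210, -0.12 to 0.26 for ATMG01280, -0.20 to 0.26 for ATMG00180, -0.22 to 0.39 for ATMG00900, -0.14 to 0.86 for ATMG01270. IDs under 1 CPM rest on few counts, and 3 libraries per group limit what could be detected.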
